A study of Homo sapiens with 25 samples.

Results

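The region studied here is a window of 3.5 Mb on the long arm of human chromosome 12, chr12:56500001-60000000 (GRCh38), that holds CDK4 and LRIG3. Its members are all peaks of the 20 deposited peak lists that lie wholly inside the window, 2577 of 1257083 peaks. NCI-H2087 gave 1175 of them in 11 lists, and NCI-H358, NCI-H441 and HCC364 gave 430, 447 and 525 in 3 lists each. The window was chosen on the local background of the NCI-H2087 peaks, so every value of that background below is a description and carries no test.

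The lists come from chromatin immunoprecipitation and sequencing (ChIP-seq) of 4 untreated lines derived from human lung adenocarcinomas, grown in RPMI medium with serum and fixed before harvest: HCC364, NCI-H441, NCI-H358 and NCI-H2087. The series concerns the dosage of NKX2-1, the lung lineage transcription factor, in this cancer. All 4 lines were profiled for NKX2-1 and for the histone marks H3K27ac, found at active promoters and enhancers, and H3K4me1, found at enhancers. NCI-H2087 was also profiled for EP300, a histone acetyltransferase, H3K4me3, a promoter mark, RNA polymerase II (RNAPolII), the transcription factors c-Jun, FOXA1, FOXA2 and SOX2, and CTCF, a DNA-binding organiser of chromatin loops. Each line and antibody is 1 library, so no difference between lines has a replicate check and none was tested. Values given 4 in a row without names are for NCI-H2087 first, then NCI-H358, then NCI-H441 and last HCC364. The number of reads behind a list is unknown here, and the intervals given for shares are exact Clopper-Pearson 95% intervals that cover counting error only.

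CDK4 is the kinase that D-type cyclins bring to the retinoblastoma protein RB1 in G1, which helps to release the E2F factors and let a cell enter S phase. The inhibitor encoded by CDKN2A blocks it. CDK4 lies on a stretch of the 12q arm that is known as a recurrent site of copy gain in tumours, together with neighbours such as TSPAN31 and, further out, MDM2 and HMGA2. LRIG3 encodes a membrane protein with leucine-rich repeats and immunoglobulin-like domains.

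The promoters of 4 genes are shown because the values below turn on them: CDK4 and LRIG3, which lie on opposite sides of a border of the NCI-H2087 background, TSPAN31, whose gene body overlaps that of CDK4 from the other strand, and CTDSP2, which had the most NKX2-1 peaks. Each is the 250 bases before the start of transcription, written 5′ to 3′ on the gene's own strand, from RefSeq (GRCh38.p14). Their positions are chr12:57752311-57752560 for CDK4 (minus strand), chr12:57744789-57745038 for TSPAN31 (plus strand), chr12:57846730-57846979 for CTDSP2 (minus strand) and chr12:58920505-58920754 for LRIG3 (minus strand). Capitals mark every match, on either strand, to the motifs described after the sequences.
CDK4: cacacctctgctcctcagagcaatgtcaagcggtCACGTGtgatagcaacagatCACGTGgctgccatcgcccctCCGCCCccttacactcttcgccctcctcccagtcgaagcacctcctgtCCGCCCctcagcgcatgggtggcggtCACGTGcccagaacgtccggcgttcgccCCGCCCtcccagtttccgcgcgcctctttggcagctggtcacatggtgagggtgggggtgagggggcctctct
TSPAN31: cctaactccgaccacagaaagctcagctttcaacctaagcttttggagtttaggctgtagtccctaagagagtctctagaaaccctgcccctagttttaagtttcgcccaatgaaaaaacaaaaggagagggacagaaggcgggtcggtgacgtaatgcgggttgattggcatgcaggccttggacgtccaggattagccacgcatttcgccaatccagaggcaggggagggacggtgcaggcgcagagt
CTDSP2: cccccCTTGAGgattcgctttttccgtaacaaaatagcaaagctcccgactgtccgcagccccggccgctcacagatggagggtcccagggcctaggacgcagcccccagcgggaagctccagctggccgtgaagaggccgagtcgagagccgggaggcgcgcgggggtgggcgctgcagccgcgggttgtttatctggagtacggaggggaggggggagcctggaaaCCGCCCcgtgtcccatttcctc
LRIG3: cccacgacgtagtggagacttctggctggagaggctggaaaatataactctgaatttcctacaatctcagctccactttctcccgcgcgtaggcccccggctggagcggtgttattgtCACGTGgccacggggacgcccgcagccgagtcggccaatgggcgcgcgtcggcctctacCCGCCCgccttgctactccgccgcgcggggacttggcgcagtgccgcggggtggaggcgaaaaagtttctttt

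The motifs searched on both strands were CTCAAG (the core of the NKX2-1 site), TGTTTAC (forkhead factors), TGANTCA (AP-1, the family of c-Jun), GGGCGG (the GC box), TTTCCCGC (E2F), TGACGTCA (the cAMP response element) and CACGTG (the E-box). CACGTG was added after the sequences had been read. The CDK4 promoter held 3 E-boxes, starting 101, 196 and 216 bases before the start, and 3 GC boxes. LRIG3 held 1 E-box and 1 GC box. CTDSP2 held 1 GC box and the only NKX2-1 core among the 4, starting 245 bases before the start, and TSPAN31 held none of the motifs. Over all 27195 promoters of the RefSeq table, the same 250 bases held CTCAAG in 10.4%, TGTTTAC in 2.97%, TGANTCA in 6.55%, GGGCGG in 42.4%, TTTCCCGC in 1.42%, TGACGTCA in 1.77% and CACGTG in 6.498%. Of the 37 genes of the window with a promoter in the table, 4 held CTCAAG, 1 held TGANTCA, 20 held GGGCGG, 1 held TTTCCCGC, 2 held CACGTG and 0 held TGTTTAC or TGACGTCA. These matches are descriptions of letters in this window only.

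The labelled cell type was checked against its markers. H3K27ac lay within 1 kb of the gene start in all 4 lines at 7 of 8 epithelial and lung markers (NKX2-1, NAPSA, KRT7, KRT8, KRT18, EPCAM and CDH1), and at SFTPB in every line but NCI-H358. Among 4 markers of other cells it was absent in every line at PTPRC (leukocytes) and PECAM1 (endothelium), present in every line at COL1A1 (fibroblasts), and present in every line but HCC364 at CD3E (T cells). Over all 19974 protein-coding genes, 48.6% had H3K27ac at the start in all 4 lines. Whether other cells add to these libraries was not tested.

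In NCI-H2087 the local background was raised over a single stretch of 1.1 Mb around CDK4, and in the other 3 lines it was not. The local background is the number of reads the peak caller expected at a summit, and the pileup is the number it found there. Both were solved from the fold and the −log10 p of each deposited peak, and each background was divided by the median background of its own list. A ratio of 1.5 or more is called raised. In bins of 50 kb, all 22 bins from 57.6 to 58.7 Mb were raised in NCI-H2087, at 4.23 to 9.16 with a median of 7.01. Elsewhere in the window 0 of 40 bins were raised, and their ratios lay between 0.70 and 1.39. Within the stretch, 532 of the 533 NCI-H2087 peaks with a solved background were raised, beside 14.5% of all peaks of the 11 lists. The exception was a CTCF peak beyond the border described below, at 1.33.

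**Figure D1:**
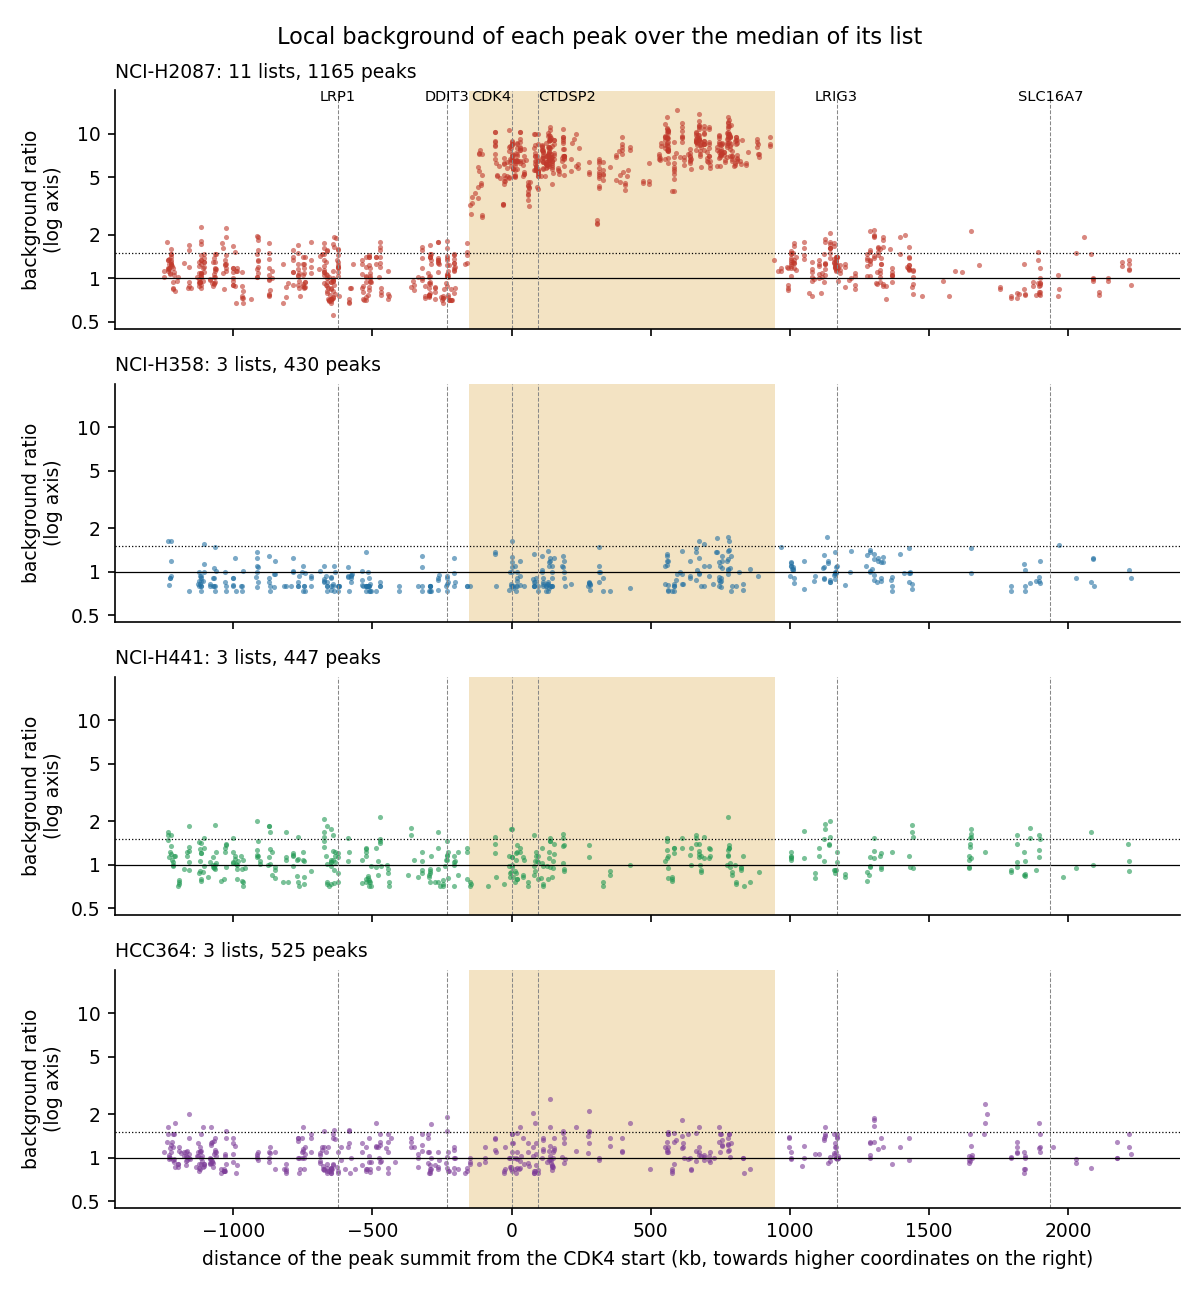
Ratio of the local background to the list median (log axis) for each peak, against the distance of its summit from the CDK4 start in kb, in 1 panel per line, with the raised stretch shaded, a solid line at 1 and a dotted line at 1.5. The NCI-H2087 peaks rise from about 1 to a median of 7.01 over the shaded stretch and return before LRIG3, while the peaks of the other 3 lines lie between 0.71 and 2.55.

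The 11 NCI-H2087 lists had stretch medians from 6.44 for H3K4me3 to 7.77 for NKX2-1, with a mean of 7.07 ± 0.40 (SD over 11 lists). These leave out 10 of the 543 NCI-H2087 peaks of the stretch, whose background was not solved. They are among the tallest and include 6 of its 19 H3K4me3 peaks, those at OS9, TSPAN31, CDK4, EEF1AKMT3, TSFM and CTDSP2. With a tolerance that follows the printed digits, chosen after seeing the data, all 10 were solved, at ratios of 6.58 to 11.5, and the H3K4me3 median was 6.92. H3K27ac was close to NKX2-1 at 7.73, and EP300, c-Jun and CTCF lay at 7.02, 7.01 and 7.07. The flanks of the same lists had mean ratios of 1.09 ± 0.13 on the left and 1.17 ± 0.088 on the right (SD, 11 lists). In the other lines the stretch medians lay at 0.86 to 0.93 in NCI-H358, 0.98 to 1.18 in NCI-H441 and 1.05 to 1.10 in HCC364 (3 lists each). No list of NCI-H2087 overlapped a list of another line. Single NCI-H2087 peaks in the stretch reached a ratio of 14.6, and the highest single peak of another line there was 2.55, in HCC364.

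**Figure D2:**
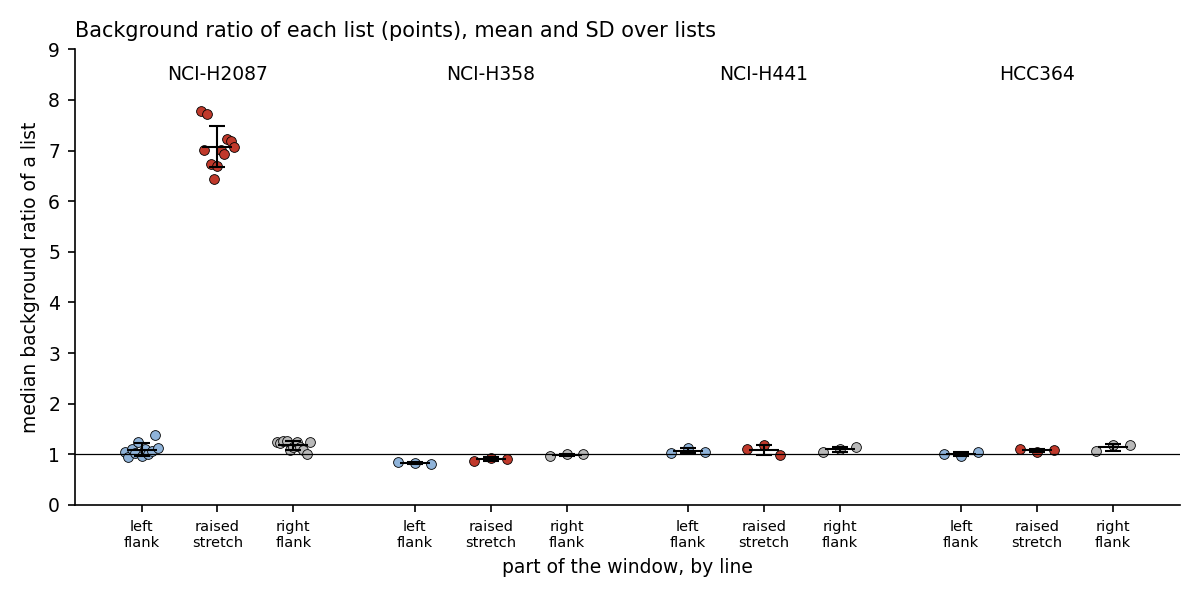
Median background ratio of each list (points) in the left flank, the raised stretch and the right flank, by line, with the mean and SD over lists. The lists of a line are not separate measurements of the background. The NCI-H2087 lists sit between 6.44 and 7.77 in the stretch and between 0.94 and 1.38 in the left flank, and all lists of the other lines sit below 1.2.

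The 11 lists do not give 11 measurements of the background. At summits that lie within 20 bp of each other in a pair of lists, the log backgrounds of NKX2-1, EP300, H3K27ac, H3K4me1, H3K4me3 and RNAPolII were nearly the same, as were those of c-Jun, FOXA1, FOXA2, SOX2 and CTCF. Pearson's r across these summits was 0.987 to 0.997 for 21 pairs within a set and 0.675 to 0.912 for 24 pairs between the sets, over the pairs with at least 50 shared summits. Among the pairs with fewer, values between the sets ran from 0.326 (H3K4me3 and c-Jun, 15 summits) to 0.959 (H3K27ac and SOX2, 11 summits). These are correlations across genome positions, given as descriptions. NCI-H2087 therefore gave 2 measurements of the background, with stretch medians of 6.88 over the 6 lists of the first set and 7.07 over the 5 lists of the second. The labels name 2 NCI-H2087 input libraries. Whether each set goes with 1 of them was not tested. The 3 lists of each other line were also alike, with r of 0.993 to 0.995 in NCI-H358, 0.988 to 0.991 in NCI-H441 and 0.981 to 0.984 in HCC364. The SD over lists is therefore not a spread of separate measurements.

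The left border fell within or just after PIP4K2C, which encodes a phosphatidylinositol phosphate kinase, and before DTX3, a ubiquitin ligase gene. The last NCI-H2087 peak before the step was an H3K4me1 peak with its summit at 57592564 and a ratio of 1.75, itself above 1.5, inside PIP4K2C (chr12:57591192-57603418). The first beyond it was an H3K4me3 peak with its summit at 57604626 and a ratio of 3.23, just before DTX3 (chr12:57604824-57609802), so that 12.1 kb separate the pair, most of it the body of PIP4K2C. The rise was not a single step. All 7 peaks from 57604626 to 57632862, over DTX3, ARHGEF25 and most of B4GALNT1, had ratios of 2.78 to 4.29. The first peak at 5 or more was a CTCF peak at 57633251 with 5.87, at the end of B4GALNT1 (chr12:57623409-57633201), a ganglioside synthase gene. Between B4GALNT1 and the next gene the ratios did not rise steadily. A CTCF peak at 57637616 had 7.73, the highest there. Further on, a FOXA2 peak at 57646937 had 2.76 and a FOXA1 peak at 57646943 had 2.64, below all 7 peaks named above. OS9, the next gene, which encodes a lectin of the endoplasmic reticulum, had an NKX2-1 peak at its start in every line, with folds of 10.3, 10.2, 9.12 and 12.7.

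The right border fell in a gene-poor interval before LRIG3. The last raised summit was a CTCF peak at 58681941 with a ratio of 9.60, and FOXA1 and FOXA2 peaks within 100 bp of it had 8.20 and 8.59. The next peak of any NCI-H2087 list was a CTCF peak at 58696236 with 1.33, 14.3 kb further on. Both lie within the long non-coding RNA genes LINC02388 (chr12:58565959-58781716) and LOC100506869 (chr12:58591702-58812669), so that the border runs through transcripts and not between genes. The raised summits spanned 1077.3 kb. A fit of 3 constant levels to the 1165 peaks with a solved background placed the ends at the same summits, 57604626 and 58681941, with levels of 1.08, 7.07 and 1.19.

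On their own within the window, the 11 lists placed the left border between 57.55 and 57.8 Mb and the right border between 58.45 and 58.8 Mb, in bins of 50 kb. FOXA1, FOXA2 and CTCF, which have peaks close to both ends, each gave 57.6 to 58.7 Mb. The narrowest run was that of SOX2, with 25 peaks in the stretch, from 57.8 to 58.6 Mb.

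The borders of the window itself cross no step in the background. Nearest to its start, the CTCF peaks of NCI-H2087 had ratios of 1.13 just inside (56501440) and 1.33 just outside (56496874), and its NKX2-1 peaks had 1.34 and 0.67. Nearest to its end, its NKX2-1 peaks had 1.26 just inside (59973153) and 0.91 just outside (60036010).

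CDK4 (chr12:57747727-57752310) lies inside the raised stretch and LRIG3 (chr12:58872155-58920504) lies outside it. Within 50 kb of CDK4 the medians of 10 NCI-H2087 lists were 5.97 to 8.00 over 81 of 85 peaks, the lowest being that of H3K4me3, which lacks its 4 unsolved peaks, and within 50 kb of LRIG3 they were 1.20 to 1.55 over 65 peaks. In the other 3 lines the list medians near CDK4 lay between 0.79 and 1.12. Of the 12q genes known to be gained with CDK4 in tumours, TSPAN31 was inside the stretch, and GLI1, the hedgehog effector, and DDIT3, a stress response factor, were outside it on the left, with list medians within 50 kb of 0.73 to 1.29 and 0.74 to 1.27. The 5 such genes beyond the window, HMGA2, MDM2, FRS2, YEATS4 and CPM, had median ratios of 1.11 to 1.19 over the NCI-H2087 peaks within 500 kb. The raised background around CDK4 did not reach MDM2 or HMGA2 in these lists. Over the other 11 genes of the G1 list (CDK6, CCND1, CCND2, CCND3, CDKN2A, CDKN2B, CDKN1A, CDKN1B, CDKN2C, RB1 and E2F1) the same NCI-H2087 ratios lay between 0.71 and 1.27.

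The fold of a peak is its pileup over its background, with 1 added to each, so at a given pileup it is lower where the background is higher. Both scales are given for the starts of CDK4 and LRIG3, where a peak counts if any part of it lies within 1 kb. At CDK4 the NKX2-1 peak had a pileup of 703 reads in NCI-H2087 and of 74, 97 and 116 in the other lines. Relative to the median pileup of each list these were 17.1, 2.06, 2.16 and 3.05, so NCI-H2087 stood apart. A called peak has a pileup above its background, so this difference is tied to the value on which the window was chosen. Its background was 34.7 reads against 4.03, 7.13 and 4.71. The folds over background were 19.7, 14.9, 12.1 and 20.5, and on that scale NCI-H2087 lay within the range of the other lines. H3K27ac at the CDK4 start gave pileups of 22.9, 2.34, 3.00 and 3.38 times the list median in the same order, and folds of 24.98, 22.8, 15.7 and 25.3. At the LRIG3 start the NKX2-1 pileups were 0.66, 0.72 and 0.68 of the list median in NCI-H2087, NCI-H358 and HCC364, with folds of 5.16, 5.35 and 4.99 and no peak in NCI-H441. H3K27ac at LRIG3 was highest in HCC364, with a fold of 24.7, and the other lines had 11.9, 9.95 and 8.02.

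**Figure D3:**
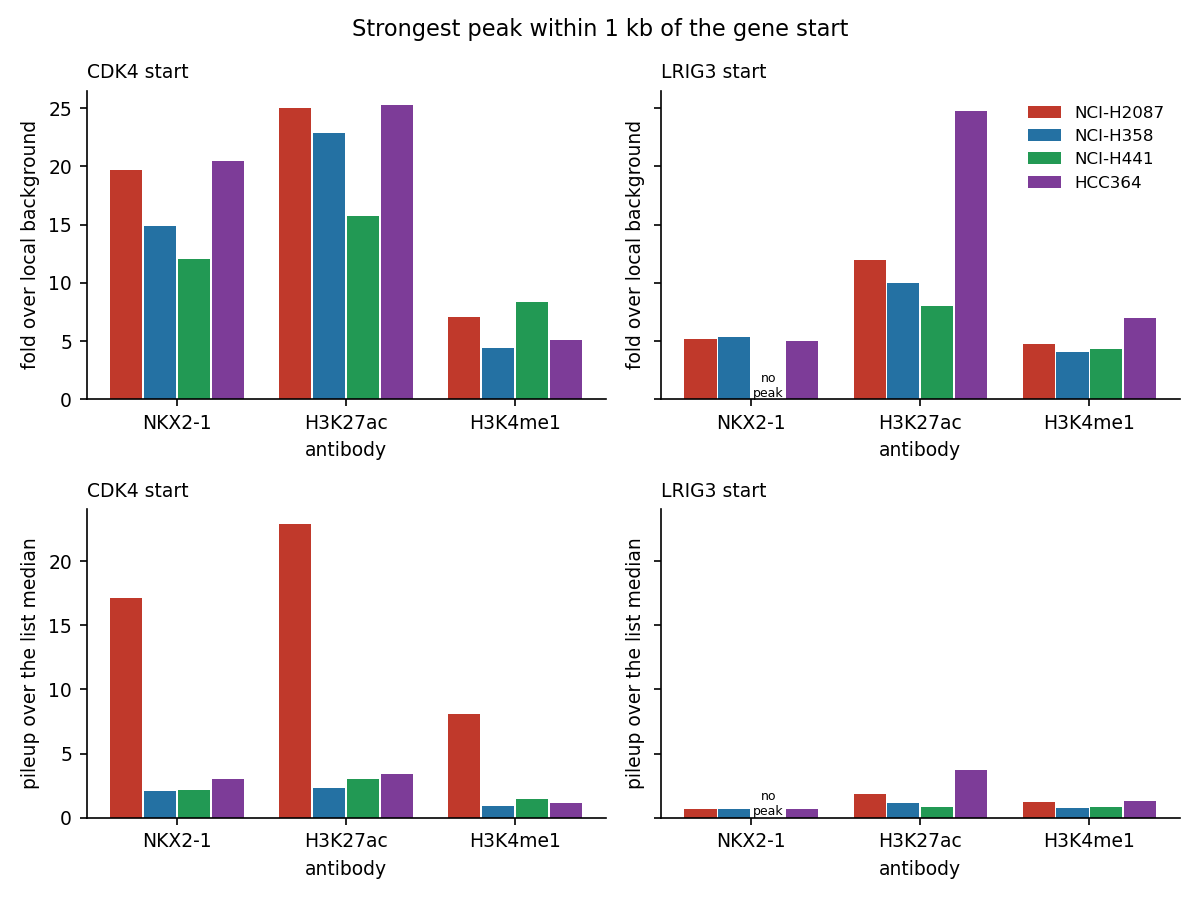
Fold over local background (upper row) and pileup over the list median (lower row) of the strongest peak within 1 kb of the CDK4 and LRIG3 starts, by antibody and line, with bars from 0 and 1 library per bar. At CDK4 the NCI-H2087 pileup stands at 17.1 for NKX2-1 where the other lines lie between 2.06 and 3.05, while the folds of the 4 lines lie between 12.1 and 20.5.

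Over the whole stretch the pileups of NCI-H2087 stood apart in the same way. As at CDK4, they are tied to the background on which the window was chosen and are no separate result. The median pileup of the NCI-H2087 peaks was 2.74 to 5.48 times the list median in all 11 lists (for H3K4me3 4.87, and 6.95 with its unsolved peaks), against 0.86 to 1.48 times in the 9 lists of the other lines. The median fold was 0.46 to 1.28 of the list median, lowest for RNAPolII (0.46) and SOX2 (0.48) and above 1 for H3K4me3 alone. In the other lines it was 0.96 to 1.32. No copy number was measured here, and what sets the background was not tested.

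In all, 7 of the 11 antibodies had a peak within 1 kb of the CDK4 start in NCI-H2087: NKX2-1, EP300, H3K27ac, H3K4me1, H3K4me3, RNAPolII and c-Jun. RNAPolII gave the widest of these peaks, 11023 bp with a fold of 27.2, and H3K4me3 the highest fold, 158. FOXA1, FOXA2, SOX2 and CTCF had none there. EP300 and c-Jun were weaker, with folds of 6.66 and 5.03. At the LRIG3 start only NKX2-1, H3K27ac, H3K4me1, H3K4me3 and CTCF had a peak in NCI-H2087, and H3K4me3 had a fold of 138.

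NCI-H2087 peaks were dense over the stretch, most of all for EP300 and SOX2. The density of peaks per Mb was set against that of the whole list, with the length of each chromosome taken as the end of its last peak. EP300 had 25 peaks in the stretch, 9.30 times its genome density, SOX2 25 (7.44 times), c-Jun 38 (4.48 times), FOXA1 85 (3.46 times) and FOXA2 87 (2.92 times). In the left flank the same antibodies stood at 2.60, 0.59, 1.30, 1.22 and 1.17 times, and in the right flank at 1.10 to 1.51. NKX2-1 had 68 peaks in the stretch in NCI-H2087, 2.48 times its genome density, against 51 (1.85 times), 54 (1.64 times) and 58 (1.83 times) in the other lines. In the left flank, which holds 33 of the 52 protein-coding genes of the window, NKX2-1 stood at 2.22, 2.15, 2.46 and 2.53 times in the same order. For NKX2-1, NCI-H2087 was the only line denser in the stretch than in the left flank. For H3K4me1 this was NCI-H358 alone (1.89 and 1.77 times), and NCI-H2087 had 2.37 and 2.49 times. H3K27ac (2.30 and 2.41) and CTCF (2.165 and 2.75) of NCI-H2087 were also less dense in the stretch than in the left flank. RNAPolII and H3K4me3 were densest in the left flank, at 5.08 and 3.18 times, and nearly absent from the right flank, with 2 peaks each.

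**Figure D4:**
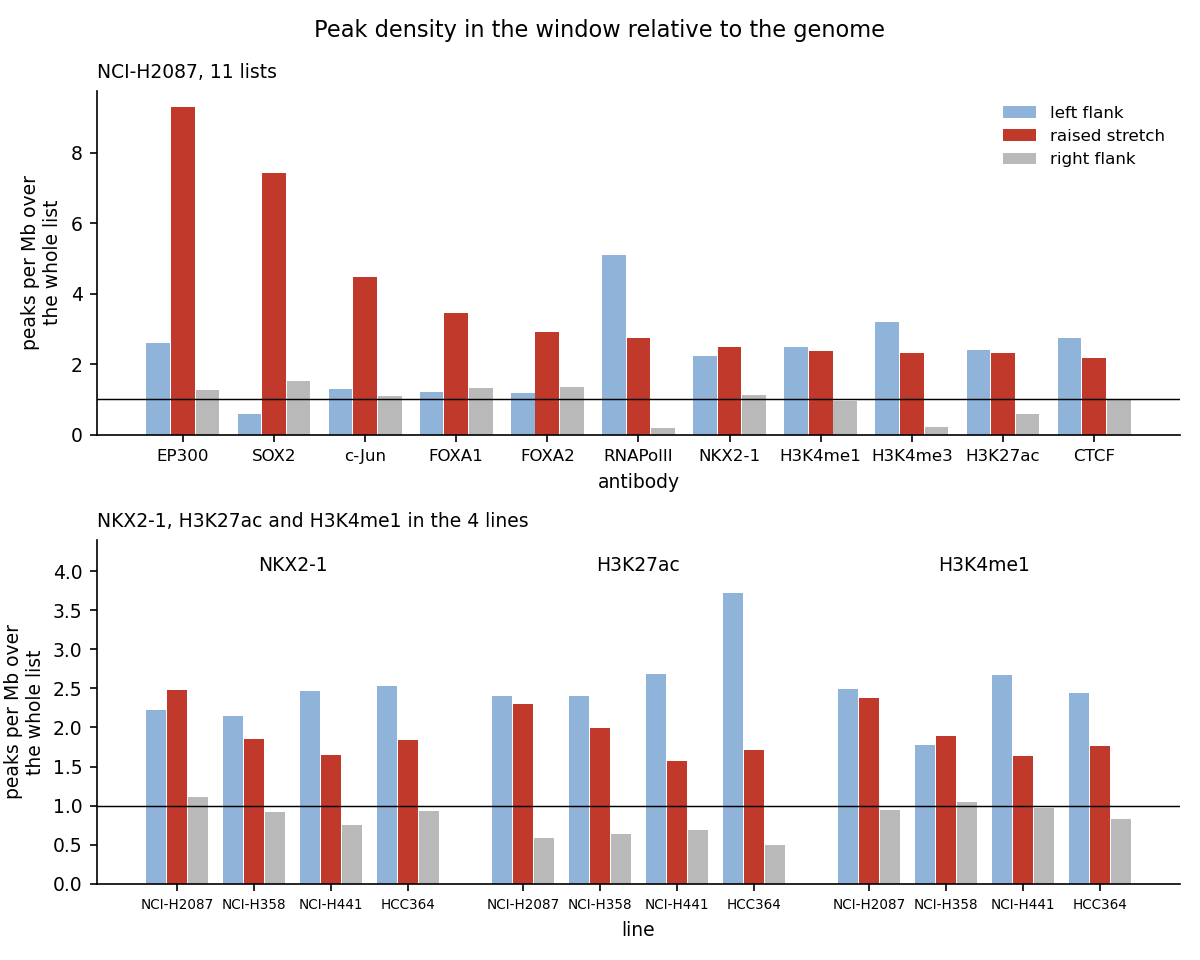
Peaks per Mb divided by the density of the whole list (bars from 0, line at 1) in the left flank, raised stretch and right flank, for the 11 NCI-H2087 antibodies (upper panel) and for the 3 antibodies shared by the 4 lines (lower panel). EP300 (9.30), SOX2 (7.44) and c-Jun (4.48) stand highest in the NCI-H2087 stretch, and the right flank lies near or below 1 in the lower panel.

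The share of each list that lay in the window ranged from 0.178% to 0.486%. NKX2-1 had 165, 140, 164 and 173 peaks there, which were 0.218%, 0.185%, 0.181% and 0.198% of the lists. H3K27ac had 101, 88, 87 and 123 in the same order, and H3K4me1 had 199, 202, 196 and 229. EP300 had the highest share of any list, 36 peaks or 0.486%. Of the NKX2-1 peaks in the window, 79 of 165 had a raised background in NCI-H2087, where the whole list has 14.4%. The numbers were 3 of 140 in NCI-H358, where the whole list has 11.5%, 27 of 164 in NCI-H441, where it has 12.5%, and 16 of 173 in HCC364, where it has 11.2%.

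NKX2-1 peaks of the window were slightly wider than those of their lists. The median was 570, 491, 562 and 488 bp in the window and 495, 479, 507 and 471 bp in the lists. Inside the stretch the NCI-H2087 NKX2-1 peaks were wider, with a median of 668.5 bp or 1.35 times the list, and those of the other lines were at 1.05 to 1.10 times. H3K27ac in the stretch stood at 1.33, 0.89, 0.82 and 1.16 times the list. The widest peaks of the window were H3K4me1 peaks of 14829 bp in NCI-H2087 and 14908 bp in HCC364.

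To compare the lines, peaks of 1 antibody that overlap by at least 1 bp were merged over the 4 lines. NKX2-1 gave 265 regions in the window, of which 72 were bound in all 4 lines, 27.2% (21.9 to 33.0), where the whole genome has 22.3%. With the 20000 strongest peaks of each list by fold, it was 12% and the rest of the genome had 14.6%. The share was 26 of 84 in the raised stretch (31.0%, 21.3 to 42.0), 37 of 121 in the left flank (30.6%) and 9 of 60 in the right flank (15.0%, 7.096 to 26.6). Only NCI-H2087 bound 23 of the 265 regions, 8.68% (5.58 to 12.7), where the whole genome has 6.65%. The stretch held 7 of these 23 among its 84 regions, 8.33% (3.42 to 16.4). When a peak had to cover at least 0.5 of the region, this was 18 of 84, 21.4%, where the rest of the genome has 7.41%. With an overlap of 1 bp, NCI-H2087 bound 67 of the 84 regions of the stretch, 7 of them alone. Over the whole genome it bound 74069 regions, 9693 of them alone, so most were bound in another line too in both. NCI-H2087 bound 79.8% of the regions of the stretch, where the genome has 50.8%. HCC364 bound 55 (65.5%, genome 58.6%), NCI-H441 50 (59.5%, genome 61.3%) and NCI-H358 47 (56.0%, genome 50.9%).

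H3K27ac gave 175 regions, of which 46 were marked in 4 lines, 26.3% (19.9 to 33.5), where the genome has 23.9%. NCI-H2087 alone marked 21, 12.0% (7.58 to 17.8), where the genome has 9.52%. In the stretch it was 11 of 54, 20.4% (10.6 to 33.5), and in the left flank 6 of 94, 6.38% (2.38 to 13.4). HCC364 alone marked 36 of the 94 regions of the left flank, 38.3% (28.5 to 48.9), where the genome has 21.9%. H3K4me1 gave 314 regions, 83 in 4 lines, 26.4% (21.6 to 31.7), where the genome has 21.2% (with the strongest peaks 5.13% and 7.99%), and 25 in NCI-H2087 alone, 7.96% (5.22 to 11.5), where the genome has 5.18%. In the stretch 15 of 107 H3K4me1 regions were in NCI-H2087 alone, 14.02% (8.06 to 22.1), against 6 of 135 in the left flank, 4.44% (1.65 to 9.42). For both marks the share was higher in the stretch than in the left flank, but the intervals overlapped. With the 20000 strongest peaks of each list the H3K27ac share of the stretch was 0 of 24, where the rest of the genome has 7.72%. These peaks were ranked by fold, which at a given pileup is lower where the background is higher. The median H3K27ac fold of NCI-H2087 in the stretch was 0.83 of the list median. How far the ranking sets this share was not tested.

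Several sites recurred among the 5 strongest NKX2-1 peaks of each line. The peak at chr12:58364231-58365392, 27.9 kb from LOC105369787, an uncharacterised protein-coding gene, was among the top 5 of 3 lines, with folds of 43.5, 44.2, 38.1 and 35.7. Its pileup was 1818 reads in NCI-H2087 and 273 in both NCI-H358 and NCI-H441. A site 71.95 kb from ATP23, a mitochondrial peptidase gene, was the strongest of the window in NCI-H441 and HCC364 and reached 45.9 and 47.9, against 20.3 in NCI-H2087 and 31.6 in NCI-H358. A site inside RBMS2 (chr12:56526254-56527626), an RNA-binding protein gene outside the stretch, had 41.9, 20.9, 37.3 and 41.5.

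Other strong sites differed between lines. The strongest in NCI-H2087 lay inside LRIG3 (chr12:58895698-58896756), outside the raised stretch, with a fold of 46.9 and a pileup of 347, and the other lines had 18.9, 33.4 and 6.16. It carried H3K4me1 in all 4 lines and H3K27ac in none. A site in the stretch at chr12:58527916-58530352 had 42.9 in NCI-H2087 and 11.6 to 15.1 elsewhere, with H3K27ac in every line. The peak at chr12:59398096-59398788, 197.6 kb from SLC16A7, a monocarboxylate transporter gene, had 44.0 in NCI-H441 and 14.1 in HCC364 and was absent from NCI-H2087 and NCI-H358. These are single libraries, so the spread that a repeat of a line would show is unknown.

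At NKX2-1 peaks of NCI-H2087, peaks of EP300, c-Jun and SOX2 were more frequent inside the stretch than in the flanks. The intervals cover counting error within 1 library per antibody and are no test. EP300 overlapped 22 of the 68 NKX2-1 peaks of the stretch, 32.4% (21.5 to 44.8), against 11 of 97 in the flanks, 11.3% (5.80 to 19.4), and 9.22% over the rest of the genome. c-Jun overlapped 33, 48.5% (36.2 to 61.0), against 21.6% (13.9 to 31.2) and 27.6%. SOX2 overlapped 18, 26.5% (16.5 to 38.6), against 8.25% (3.63 to 15.6) and 11.6%. The same held for the mark H3K4me1, which overlapped 58, 85.3% (74.6 to 92.7), against 57.7% (47.3 to 67.7) and 61.6%. FOXA1 (63.2%), FOXA2 (66.2%) and H3K27ac (58.8%) had intervals that held their share over the rest of the genome. The NKX2-1 peaks of the stretch had a median width of 1.35 times the list. The median folds of EP300, c-Jun and SOX2 there were 0.71, 0.64 and 0.48 of the list median. Whether peak width or the raised background adds to these overlaps was not tested. Nearly all EP300 and c-Jun peaks lay at NKX2-1 peaks, in the stretch as over the rest of the genome. Of the EP300 peaks, 24 of 25 in the stretch and 11 of 11 in the flanks overlapped an NKX2-1 peak, as did 37 of 38 c-Jun peaks in the stretch. Over the rest of the genome the shares were 96.3% for EP300 and 91.3% for c-Jun. FOXA1 had 55.3% in the stretch and 60.9% over the rest of the genome, and CTCF had 43.8% and 25.3%.

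**Figure D5:**
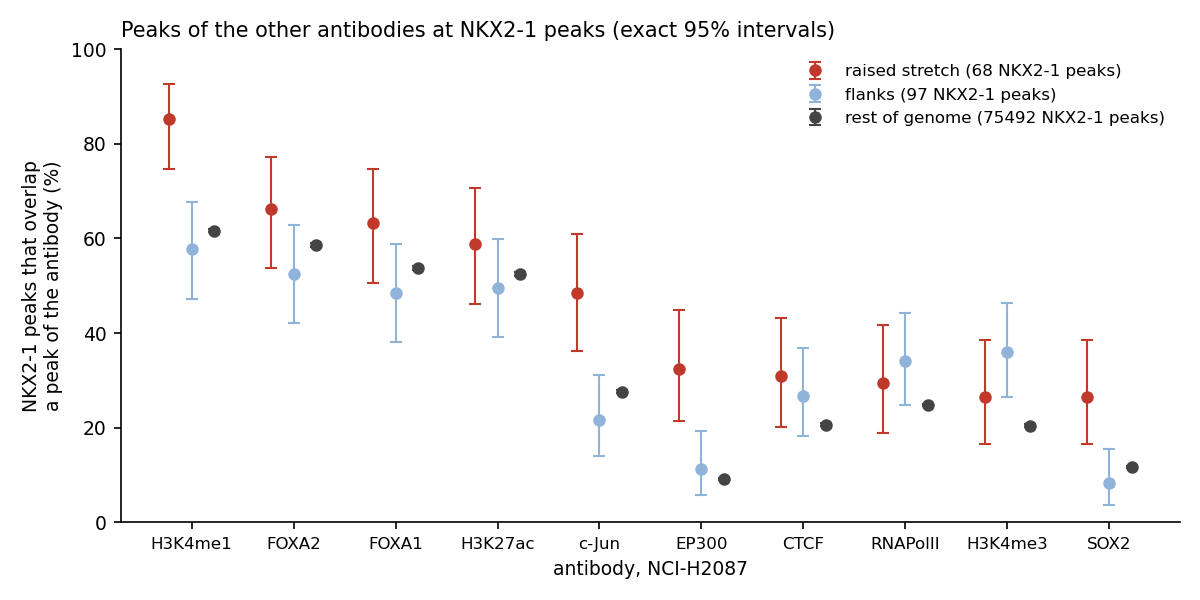
Percentage of NCI-H2087 NKX2-1 peaks that overlap a peak of each other antibody by at least 1 bp, in the raised stretch, the flanks and the rest of the genome, with exact 95% intervals for counting error. EP300, c-Jun, SOX2 and H3K4me1 lie higher in the stretch than in the flanks, at 32.4%, 48.5%, 26.5% and 85.3%.

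Merged over the 11 antibodies, NCI-H2087 had 130 regions in the stretch, 118 in the left flank and 78 in the right flank. Regions with 6 or more antibodies were 26 of 130 in the stretch, 20.0% (13.5 to 27.9), 21 of 118 on the left, 17.8%, 9 of 78 on the right, 11.5%, and 13.7% over the rest of the genome. Regions that held NKX2-1, EP300, c-Jun, FOXA1, FOXA2 and SOX2 together were 8 of 130 in the stretch, 6.15% (2.69 to 11.8), 0 of 118 on the left, which allows up to 3.08% at the upper bound, 1 of 78 on the right and 1.48% over the rest of the genome. The longer lists enter the merged regions with more peaks, and their share was not adjusted for list length.

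Of the 5 regions with the most antibodies, 3 held all 11 and lay in the stretch: chr12:57886157-57897780, 45.2 kb from CTDSP2, chr12:57830004-57847801 across the CTDSP2 start, and chr12:58423010-58428069, 88.5 kb from LOC105369787. CTDSP2 encodes a phosphatase of the RNA polymerase II tail and hosts the microRNA gene MIR26A2 (chr12:57824609-57824692). The region across its start had highest folds of 233 for H3K4me3 and 57.8 for CTCF. Within 1 kb of the start itself CTCF had 2.83, and c-Jun and SOX2 had no peak. The region near LOC105369787 had 3.12 for H3K4me3, 77.8 for FOXA1, 86.4 for FOXA2, 34.2 for c-Jun and 10.9 for SOX2. The other 2 held 10 antibodies, lacked SOX2 and lay across RBMS2 and across TSPAN31, CDK4 and MARCHF9 (chr12:57741872-57762172). Regions with the same number of antibodies were ordered by their NKX2-1 fold. The CDK4 region had highest folds of 94.8 for CTCF, 158 for H3K4me3 and 3.88 for FOXA1. These CTCF and FOXA1 peaks lay within 1 kb of the MARCHF9 start. Neither antibody had a peak within 1 kb of the CDK4 or TSPAN31 start.

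CTDSP2 had the most NKX2-1 peaks of any gene of the window when each peak went to the nearest gene end within 50 kb: 13, 11, 12 and 11. LRIG3 followed with 11, 8, 5 and 11, and LOC105369787 with 7, 7, 7 and 8. LRP1, an endocytic receptor gene of the left flank, had 3, 6, 4 and 8. The others of the 10 genes with the most peaks were HSD17B6, SDR9C7 and R3HDM2 with 19 each over the 4 lines, RBMS2 with 18, and ATP23 and ATP5F1B with 16 each. CDK4 had 1 in every line. The numbers of NCI-H2087 lay within 2 peaks of the highest other line at CTDSP2, LRIG3 and LOC105369787.

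H3K27ac at gene starts was mostly shared by the 4 lines. Of the 52 protein-coding genes, 33 had H3K27ac within 1 kb of the start in all 4 lines, 63.5% against 48.6% of all genes. It was in no line at 13 of the 52, and at 7251 of all 19974 genes. For the 15 genes whose strand the reference tables used here do not give, either end was counted. The number per line was 36, 36, 37 and 33. No gene had H3K27ac in NCI-H2087 alone, and none lacked it there while the other 3 lines had it, so 0 of 52 genes fell in either class. The share of all protein-coding genes in these classes is not given here, so this count is a description only. In the stretch, 10 of 16 genes were marked in every line: DTX3, OS9, TSPAN31, CDK4, METTL1, EEF1AKMT3, TSFM, CTDSP2, ATP23 and LOC105369787. ARHGEF25, B4GALNT1, AGAP2 and AVIL were marked in none. CYP27B1, which encodes the enzyme that activates vitamin D, had H3K27ac in NCI-H2087 and NCI-H441 and not in the other lines, and MARCHF9, a ubiquitin ligase gene, in every line but HCC364.

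NKX2-1 lay at the start of 11 of the 16 genes of the stretch in NCI-H2087 and 10, 10 and 12 in the other lines, 68.8%, 62.5%, 62.5% and 75%. Over all protein-coding genes the shares were 43.8%, 40.7%, 43.2% and 48.7%, and in the left flank 60.6%, 57.6%, 60.6% and 63.6%. It was there in all 4 lines at 9 of them: OS9, TSPAN31, CDK4, MARCHF9, CYP27B1, METTL1, EEF1AKMT3, CTDSP2 and LOC105369787. TSFM had it in every line but NCI-H441. At ATP23 it was present in NCI-H2087 and HCC364, and at DTX3 in NCI-H441 and HCC364. In the left flank it was at 17 of 33 genes in all 4 lines, among them LRP1, GLI1 and DDIT3. The share of all protein-coding genes with NKX2-1 at the start in all 4 lines is not given here. The counts of 9 of 16 and 17 of 33 are therefore descriptions only. In NCI-H2087, EP300 lay at the start of 9 of the 16 genes of the stretch, 7 of the 33 of the left flank and 13.002% of all genes. SOX2 lay at 1 and 0 of them, the former being LOC105369787, and at 0.841% of all genes.

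Among the 12 genes of the G1 list, 8 had H3K27ac at the start in all 4 lines, CDK4, CDK6, CCND1, CDKN2A, CDKN2B, CDKN1A, CDKN1B and CDKN2C, and CCND2 and RB1 had it in none. CCND3 had it in NCI-H2087 and NCI-H358, and E2F1 in NCI-H441 and HCC364. CDK4 had 9, 7, 6 and 9 NKX2-1 peaks within 50 kb. CDK6, its paralogue, had 22, 20, 24 and 30, and CCND1 12, 13, 12 and 10. The list medians were 6.5, 6.5, 7 and 9.5, beside 5, 5, 7 and 6 over all protein-coding genes. All 10 genes of the 12q list, MDM2 and HMGA2 included, had H3K27ac at the start in every line.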

How the data were processed

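The window and the lists of genes were chosen with earlier results of these data known. The submitters' processing notes list MACS2 in versions 2.1.1 and 2.2.7.1, bedtools, SAMtools 1.9, Trimmomatic 0.36 and Bowtie2 2.2.9, with GRCh38 as the build. Their roles, the version behind each list and the control that set the local background are not given in the sources used. The 20 deposited lists hold 1 library each. In them column 7 is a fold (a linear ratio of summit to local background), columns 8 and 9 are the −log10 p and −log10 q that the authors deposited, and column 10 is the summit offset. Peaks on chromosomes 1 to 22 and X were used. The 5 input libraries were not analysed here.

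Pileup and background were solved from columns 7 and 8 with the caller's Poisson formulas, checked on simulated data. A solution within 0.01 of the deposited value was accepted, which at least 99.96% of the peaks of every list met. Of 14 unsolved NCI-H2087 peaks, 10 lay in the stretch. The stretch is the longest run of 50 kb bins, with at least 3 peaks each, whose median ratio over lists is 1.5 or more, in the window and 5 Mb on each side. Peaks belong to the stretch and flanks by their summit. Genes came from RefSeq GRCh38.p14. No genome was used, so motifs under peaks were not searched. Named genes are CDK4, LRIG3, the 2 gene lists, the 10 genes with most NKX2-1 peaks, genes at the borders, and genes whose H3K27ac sets NCI-H2087 apart. Named sites are the 5 regions with most antibodies (ties by NKX2-1 fold) and the 5 strongest NKX2-1 peaks of each line. Other genes of the stretch were named after their values were seen. Python 3.11.15, numpy 2.4.6, pandas 2.3.3, scipy 1.17.1 and matplotlib 3.10.9 were used.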

Additional observations from a re-analysis of the deposited data

How the results depend on the processing

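No paired analysis was possible because each line and antibody is 1 library and the result comes from no test. Of 111 alternative values, 55 stayed within their counting or list spread and 56 moved beyond it. Against the rest of the genome, 6 of 48 shares changed side, all with the 20000 strongest peaks per list. The share of NKX2-1 regions bound in 4 lines fell from 27.2% to 17.7% when a peak had to cover at least 0.5 of the region, and to 12.0% (9 of 75) with the strongest peaks, where the rest of the genome had 14.4% and 14.6%. For H3K27ac it was 17.2% with 500 bp windows on summits, 15.4% with the cover rule and 43.3% with the strongest peaks (rest of the genome 13.3%, 11.02% and 30.2%), and for H3K4me1 it was 16.7% at a −log10 q of 10 or more, 13.04% with summit windows, 7.32% with the cover rule and 5.13% with the strongest peaks (rest of the genome 16.3%, 9.53%, 6.54% and 7.99%). The share bound in NCI-H2087 alone became 13.2% for NKX2-1 with the cover rule (rest of the genome 7.41%), and with the strongest peaks 0% for H3K27ac (0 of 60), 14.1% for H3K4me1 and 6.67% for NKX2-1 (rest of the genome 7.72%, 11.98% and 11.2%). In the stretch the strongest peaks gave 4.17% for NKX2-1 (1 of 24) and 0% for H3K27ac. The strongest peaks were ranked by fold, which at a given pileup is lower where the background is higher. With summits within 200 bp, 14.7% of the NKX2-1 peaks of the stretch had H3K27ac and 50% had FOXA1. Against the lowest background of a list the stretch stood at 9.51 in NCI-H2087, 1.30 in HCC364, 1.18 in NCI-H358 and 1.56 in NCI-H441, and against the rest of chromosome 12 at 6.54 in NCI-H2087, 1.00 in HCC364 and 1.01 in NCI-H358, which thus lay above 1 in both and at 0.91 against the list median. The 6 lists of the first background set placed the right border at 58.6 Mb, a setting chosen after seeing the data. The cause of these shifts was not tested. Read depth is unknown here, and lists differ in length, which limits any comparison of peak numbers.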

Other observations

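In bins of 1 Mb over the genome (2791 bins with at least 5 NCI-H2087 peaks), the bin that starts at 58 Mb of chromosome 12 had the second highest median background ratio in NCI-H2087, 6.99 over 372 peaks, and the bin at 57 Mb ranked 9 with 3.66. Each of these bins holds a border of the stretch, at 58.7 and 57.6 Mb, and so mixes peaks inside and outside it. The highest ratio, at 49 Mb of chromosome 4, was 20.0 over 38 peaks. Ranks 3 to 5 were also on chromosome 12, at 37, 33 and 34 Mb, with 6.80, 6.19 and 5.66. Ranks 6 to 8 were at 34 Mb of chromosome 10 and at 126 and 127 Mb of chromosome 8, with 4.18, 3.85 and 3.78. Ranks 10 to 12 were at 125 Mb of chromosome 8, 26 Mb of chromosome 10 and 10 Mb of chromosome 21, with 3.65, 3.42 and 3.13. A further bin of chromosome 12, at 52 Mb, ranked 13 with 3.04 over 571 peaks. It holds the keratin genes KRT7, KRT8 and KRT18, markers of simple epithelium, whose NCI-H2087 ratios within 500 kb were 1.84, 2.94 and 2.90. These bins were picked for their values, and what sets them was not tested.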
